A study of Homo sapiens with 8 samples.

Results

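The genes described here are 10 members of the interleukin-7 receptor pathway, from the receptor at the cell surface to the genes that the pathway switches on: IL7R, IL2RG, JAK1, JAK3, STAT3, STAT5A, STAT5B, CISH, SOCS2 and PIM1. They were chosen by name, with 1 row each among the 64252 genes that were counted, and all 10 passed the filter on low counts in both cell lines. Their levels were compared between cells with a control short hairpin RNA (sh-NC) and cells with a short hairpin RNA against LDB1 (sh-LDB1). STAT5A and STAT5B share 415 exon bases on opposite strands, so the sum of their counts was tested as well.

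Interleukin-7 binds a receptor made of the alpha chain IL7R and the common gamma chain IL2RG. The kinase JAK1 sits on the alpha chain and JAK3 on the gamma chain, and once both are active they phosphorylate STAT proteins, mainly STAT5A and STAT5B, which enter the nucleus and bind DNA. CISH and the SOCS genes are classical STAT5 targets that feed back to dampen cytokine signalling, and PIM1 is a target that encodes a pro-survival kinase. Thymocytes depend on this pathway for survival, and activating mutations of IL7R, JAK1, JAK3 and STAT5B are known from T-ALL, the acute lymphoblastic leukemia of T cells. These RNA counts measure transcript levels and hold nothing on phosphorylation.

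LDB1 is a co-activator that has no DNA-binding domain of its own and acts with transcription factors of the GATA, RUNX, E-protein and ETS families. The sequences before the start of IL7R, STAT5A, STAT5B and STAT3, the members called in the same direction in both lines, and of CISH, the member with the most STAT matches, are therefore printed with the letters that such factors and the STAT proteins are known to recognise. RefSeq held a start site for 9 of the 10 members, with 13 start windows among them, and SOCS2 had none. Each line below gives 250 bases that end just before the annotated start, 5′ to 3′ on the strand of the gene, on GRCh38.p14, with the most upstream of its 3 annotated starts for STAT5A. The RefSeq starts used for IL7R and STAT5B lie inside the gene bounds given below, so the sequence before the outer end of these genes is not printed. Capitals mark the letters of 5 motifs on either strand. The motif of the STAT proteins was searched as TTCNNNGAA. The motif of the RUNX factors was searched as TGTGGT, and that of the ETS factors as CCGGAA. The motif of the GATA factors was searched as AGATAA, and the E-box, which E-proteins bind as dimers, as CAGCTG.
IL7R (chr5:35856641-35856890, plus strand): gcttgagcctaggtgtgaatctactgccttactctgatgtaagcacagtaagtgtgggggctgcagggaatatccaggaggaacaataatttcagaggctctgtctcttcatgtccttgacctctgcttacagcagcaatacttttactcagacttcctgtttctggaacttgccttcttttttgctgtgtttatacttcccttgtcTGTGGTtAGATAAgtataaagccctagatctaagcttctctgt
STAT5A (chr17:42287189-42287438, plus strand): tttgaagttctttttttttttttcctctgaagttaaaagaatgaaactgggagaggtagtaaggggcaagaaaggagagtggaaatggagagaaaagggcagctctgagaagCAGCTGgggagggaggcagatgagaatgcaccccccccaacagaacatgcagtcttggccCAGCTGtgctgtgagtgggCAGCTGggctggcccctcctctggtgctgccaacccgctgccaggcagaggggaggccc
STAT5B (chr17:42276392-42276641, minus strand): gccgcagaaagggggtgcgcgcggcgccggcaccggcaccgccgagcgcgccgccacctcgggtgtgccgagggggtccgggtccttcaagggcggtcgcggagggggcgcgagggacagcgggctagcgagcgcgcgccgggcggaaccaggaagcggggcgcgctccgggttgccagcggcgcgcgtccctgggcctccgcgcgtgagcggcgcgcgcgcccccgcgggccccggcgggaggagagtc
STAT3 (chr17:42388443-42388692, minus strand): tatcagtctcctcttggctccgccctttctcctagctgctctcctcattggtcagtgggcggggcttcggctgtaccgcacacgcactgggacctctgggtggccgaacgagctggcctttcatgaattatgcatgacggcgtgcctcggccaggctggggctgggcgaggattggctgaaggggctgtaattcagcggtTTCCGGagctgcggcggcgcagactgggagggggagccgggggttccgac
CISH (chr3:50611775-50612024, minus strand): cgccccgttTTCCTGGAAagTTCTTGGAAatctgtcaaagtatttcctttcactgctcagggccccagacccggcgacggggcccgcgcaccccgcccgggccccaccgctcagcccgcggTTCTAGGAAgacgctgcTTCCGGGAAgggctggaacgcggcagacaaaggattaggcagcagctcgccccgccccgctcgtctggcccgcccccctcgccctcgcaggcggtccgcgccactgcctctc
The window of IL7R held a RUNX match 43 bases before the start and a GATA match 36 bases before it. The window of STAT5A held 3 E-box matches, 138, 78 and 59 bases before the start, and that of STAT3 held 1 ETS match on the other strand, 50 bases before the start. CISH held 4 STAT matches, 241, 230, 129 and 112 bases before its start, and the last of them overlapped an ETS match. Over all 35116 windows of this length, 6.57% held a STAT match, 10.98% a RUNX match, 14.53% an ETS match, 9.17% a GATA match and 13.99% an E-box match. Only 5 of the 35116 windows, or 0.0142%, held 4 or more STAT matches. The windows of STAT5B, printed without capitals, and PIM1 held none of these letters, and those of IL2RG, JAK1 and JAK3 held ETS matches or none. These matches are a description of letters and not of binding.

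Both cell lines come from human T-ALL, 6T-CEM as a derivative of CCRF-CEM and J.gamma1 as a derivative of Jurkat. Each line carried either sh-NC or sh-LDB1, delivered by a lentiviral vector with puromycin selection, and each of the 4 groups had 2 libraries. Nothing in the labels says that the 2 libraries of a group came from separate cultures, so the p-values measure only the spread between these libraries, which may be technical. The hairpin against LDB1 that the sequenced cells carried is not named in the sources used here. LDB1 itself went from 106.9 and 111.2 CPM (counts per 1000000 counts of a library, scaled with TMM factors) in 6T-CEM sh-NC down to 37.0 and 35.0 CPM in sh-LDB1, a decrease of 1.60 on the log2 scale (standard error, SE, 0.071). In J.gamma1 it stood at 60.2 and 58.8 CPM in sh-NC and at 33.2 and 30.8 CPM in sh-LDB1, a decrease of 0.89 (SE 0.075). The LDB1 decrease was smaller in J.gamma1 by 0.70 (SE 0.095, edgeR adjusted p = 0.000237), which stands beside every difference between the lines given here. Total counts lay between 26160492 and 30604977 per library, and the log2 CPM of replicates correlated at 0.993 over genes in each group. All 8 T-lineage markers were detected in every group, but CD2 had only 9 to 14 reads (0.309 to 0.490 CPM) per 6T-CEM library. The 8 summed to 1950 to 1966 CPM in 6T-CEM sh-NC and 2394 to 2461 CPM in sh-LDB1. In J.gamma1 they summed to 2267 to 2324 CPM in sh-NC and 2575 to 2614 CPM in sh-LDB1. The 12 markers of other cell types summed to 24.8 to 25.3 CPM against 41.7 to 43.5 CPM in 6T-CEM and to 72.6 to 73.5 CPM against 88.1 to 88.7 CPM in J.gamma1. CD79A made up most of these sums, which without it lay between 1.56 and 13.04 CPM. By edgeR, 3 of these markers rose and 0 fell in each line, and at an unadjusted p 0 fell either (by DESeq2, 1 rose and 0 fell in 6T-CEM, and 3 rose and 0 fell in J.gamma1). In 6T-CEM they were CD79A (log2 fold change 0.74, SE 0.094), COL1A1 (a fibroblast gene, 5 and 2 to 35 and 15 reads) and MPO (9 and 8 to 38 and 32 reads). In J.gamma1 they were CD79A (0.20, SE 0.059), COL1A1 (4.32 and 4.15 to 8.97 and 9.27 CPM) and KLRD1 (0 in both to 0.893 and 0.713 CPM). Among the T-lineage markers CD3G, a chain of the T cell receptor complex, rose by more than the fold threshold of 1 in J.gamma1 (1.15, SE 0.059), and 5 markers rose and 1 fell in 6T-CEM, while 3 rose and 3 fell in J.gamma1. Of the defining markers, MPO and CD33 (myeloid), EPCAM (epithelial) and HBB (red cell) were at 0 in both J.gamma1 groups, and MS4A1 (B cell), KLRD1 (NK cell) and HBB in both 6T-CEM groups. The part of other cells in the results was not tested.

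Knockdown of LDB1 was followed by lower STAT3, STAT5A and STAT5B transcripts in both lines and by higher IL7R transcripts in both lines. JAK3, IL2RG and PIM1 changed differently in the lines by the test of that difference. CISH and SOCS2 passed in 6T-CEM and missed the test in J.gamma1, with no detectable difference between the lines, and JAK1 did not pass in either. In 6T-CEM, IL7R, CISH, SOCS2 and PIM1 rose, STAT3, STAT5A and STAT5B fell, and IL2RG, JAK1 and JAK3 did not pass the test (a call needed an adjusted p under 0.05 by edgeR's quasi-likelihood test over all genes). That is 4 of 10 members higher, where 15.1% of all 16059 genes tested were called higher, and 3 of 10 lower, where 16.2% of all genes were called lower. When the log2 fold change also had to exceed 1 in size, 1 of the 10 was called, STAT5A, against 5.13% of all genes. In J.gamma1, IL7R and JAK3 rose, IL2RG, STAT3, STAT5A, STAT5B and PIM1 fell, and JAK1, CISH and SOCS2 did not pass. That is 2 of 10 higher against 25.0% of all 17215 genes tested, and 5 of 10 lower against 26.5%. With the fold threshold, 4 of the 10 were called in J.gamma1, IL7R, JAK3, STAT5A and STAT5B, against 13.9% of all genes. Over the 10 members the median log2 fold change was 0.06 for 6T-CEM and -0.25 for J.gamma1, and the medians of all genes tested were both 0.00 to 2 decimals. In these bulk samples, fewer cells of a type and less RNA per cell cannot be told apart.

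**Figure D1:**
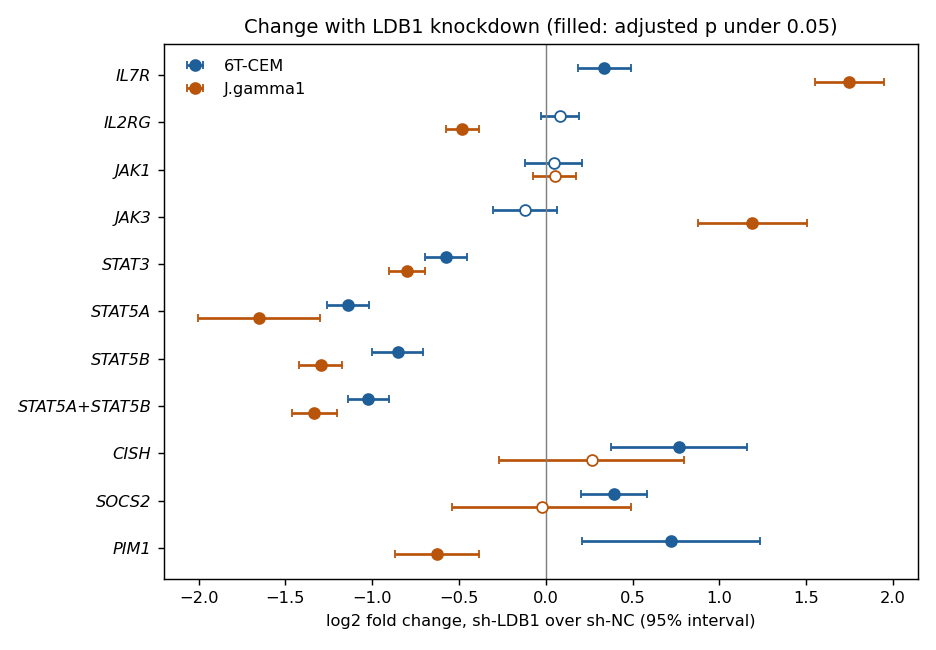
The x axis gives the log2 fold change of each member, sh-LDB1 over sh-NC, with its 95% interval, in 6T-CEM (blue) and J.gamma1 (orange). Filled points passed the test at an adjusted p under 0.05. The 3 STAT genes and the STAT5 sum lie left of 0 in both lines, IL7R lies right of 0 in both, and PIM1 lies on opposite sides.

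IL7R, the alpha chain that gives the receptor its specificity for interleukin-7, lies on chromosome 5 from 35852695 to 35879603 on the plus strand. It stood at 51.2 and 53.7 CPM in 6T-CEM sh-NC and at 65.7 and 66.6 CPM in sh-LDB1. The J.gamma1 libraries held 15.8 and 13.8 CPM in sh-NC and 50.8 and 48.5 CPM in sh-LDB1. Both sh-LDB1 libraries were above both sh-NC libraries in each line, and the J.gamma1 sh-LDB1 libraries came close to, but stayed below, the 6T-CEM control libraries. The increase was 1.26-fold in 6T-CEM (log2 fold change 0.34, SE 0.072, edgeR adjusted p = 0.00235) and 3.36-fold in J.gamma1 (log2 fold change 1.75, SE 0.090, edgeR adjusted p = 9.48e-08). The increase was larger in J.gamma1 by 1.41 on the log2 scale (SE 0.11, 95% interval 1.17 to 1.65, edgeR adjusted p = 4.66e-06).

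IL2RG, the gamma chain shared by the receptors of interleukins 2, 4, 7, 9, 15 and 21, lies on chromosome X from 71107404 to 71112108 on the minus strand. In 6T-CEM it stood at 570.6 and 572.5 CPM in sh-NC and at 589.3 and 617.5 CPM in sh-LDB1, with a log2 fold change of 0.08 (SE 0.052, 95% interval -0.03 to 0.19) that did not pass the test. The 6T-CEM groups did not overlap, so with 2 libraries per group a lack of overlap alone does not mark a change. In J.gamma1 the levels of IL2RG were 350.9 and 357.0 CPM in sh-NC and 251.8 and 253.0 CPM in sh-LDB1, also without overlap. This was a 1.40-fold decrease (log2 fold change -0.48, SE 0.043, edgeR adjusted p = 5.59e-06). The change differed between the lines by -0.57 (SE 0.059, edgeR adjusted p = 3.75e-05). Within J.gamma1 the chains of the receptor thus moved in opposite directions, with IL7R higher and IL2RG lower. IL2RG shares 1403 exon bases on the same strand with the annotated gene ENSG00000285171, which has no row among the genes that were counted.

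The other receptor chains that pair with IL2RG or with IL7R were given by a list of 9 genes that holds IL7R and IL2RG themselves. In 6T-CEM, 6 of the 9 were tested, with 2 higher and 1 lower by edgeR. DESeq2 called 1 higher there, IL7R, and 0 lower. In J.gamma1 8 were tested, with 4 higher and 3 lower by edgeR and by DESeq2. IL2RB, the chain that interleukins 2 and 15 share, rose in both lines, from 2.50 and 1.34 CPM to 3.67 and 3.74 CPM in 6T-CEM and from 1.35 and 1.01 CPM to 5.40 and 6.65 CPM in J.gamma1. Its log2 fold changes were 0.95 (SE 0.30) and 2.35 (SE 0.26). The IL2RB increase in 6T-CEM was called by edgeR and not by DESeq2. IL21R, the receptor of interleukin-21, fell in 6T-CEM by edgeR (log2 fold change -0.48, SE 0.14), a decrease that DESeq2 did not call. It rose in J.gamma1 (1.75, SE 0.30), a difference of 2.23 (SE 0.30, edgeR adjusted p = 0.000226). IL15RA rose in J.gamma1 (1.71, SE 0.36), from under 1 CPM, and had a log2 fold change of -0.64 (SE 0.49) in 6T-CEM that did not pass. IL9R, the receptor of interleukin-9, fell in J.gamma1 from 26.7 and 28.6 CPM to 8.86 and 9.64 CPM (log2 fold change -1.57, SE 0.11). IL4R fell there as well (-0.65, SE 0.11), and in 6T-CEM it was too low to be tested. The gamma chain receptor genes of J.gamma1 thus split into a higher group, IL7R, IL2RB, IL15RA and IL21R, and a lower group, IL2RG, IL4R and IL9R, while IL2RA did not pass the test (0.84, SE 0.47) and CRLF2 was too low to be tested.

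Of the 7 ligand genes, IL9 and IL21 were at 0 in all 8 libraries, IL7 had 3 counts in 1 library and 0 in the others, and 3 ligands were tested in 6T-CEM, of which 0 were called by edgeR (1 at an unadjusted p under 0.05, and 0 by DESeq2). In J.gamma1 both ligands that were tested fell. TSLP, a cytokine that signals through IL7R and CRLF2, went from 21.9 and 19.0 CPM to 8.11 and 6.15 CPM (log2 fold change -1.51, SE 0.15), and IL15 went from 3.81 and 3.30 CPM to 1.43 and 1.36 CPM (-1.34, SE 0.26). The libraries of sh-NC and sh-LDB1 did not overlap for either.

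JAK1, the kinase bound to the IL7R chain, lies on chromosome 1 from 64833223 to 65067754 on the minus strand. It stood between 121.3 and 139.7 CPM in all 8 libraries, and the groups overlapped in both lines. Its log2 fold change was 0.04 (SE 0.075, 95% interval -0.12 to 0.21) in 6T-CEM and 0.05 (SE 0.056, 95% interval -0.07 to 0.18) in J.gamma1. The control cells of the lines differed by 0.01 (SE 0.071, 95% interval -0.15 to 0.16). None of these passed the test.

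JAK3, the kinase bound to the gamma chain and largely limited to blood cells, lies on chromosome 19 from 17824780 to 17848071 on the minus strand. In 6T-CEM it stood at 44.4 and 46.2 CPM in sh-NC and at 44.6 and 38.7 CPM in sh-LDB1, with overlap and a log2 fold change of -0.12 (SE 0.087, 95% interval -0.30 to 0.07) that did not pass. The J.gamma1 levels were 6.59 and 6.12 CPM in sh-NC and 15.2 and 13.7 CPM in sh-LDB1. This was a 2.28-fold increase without overlap (log2 fold change 1.19, SE 0.14, edgeR adjusted p = 4.59e-05). The change differed between the lines by 1.31 (SE 0.15, edgeR adjusted p = 6.50e-05). The sh-LDB1 libraries of J.gamma1 remained well below every 6T-CEM library. Of the other kinases of the family, JAK2 rose in J.gamma1 (0.33, SE 0.10) and had a log2 fold change of 0.24 (SE 0.15) in 6T-CEM, and TYK2 did not pass in 6T-CEM (0.15, SE 0.067) or J.gamma1 (0.05, SE 0.053). Of the 4 kinases, 0 were called in 6T-CEM by edgeR (1 at an unadjusted p under 0.05, and 0 by DESeq2). In J.gamma1 edgeR called 2, both higher. DESeq2 called 1 there, JAK3, and so did not make the JAK2 call.

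**Figure D2:**
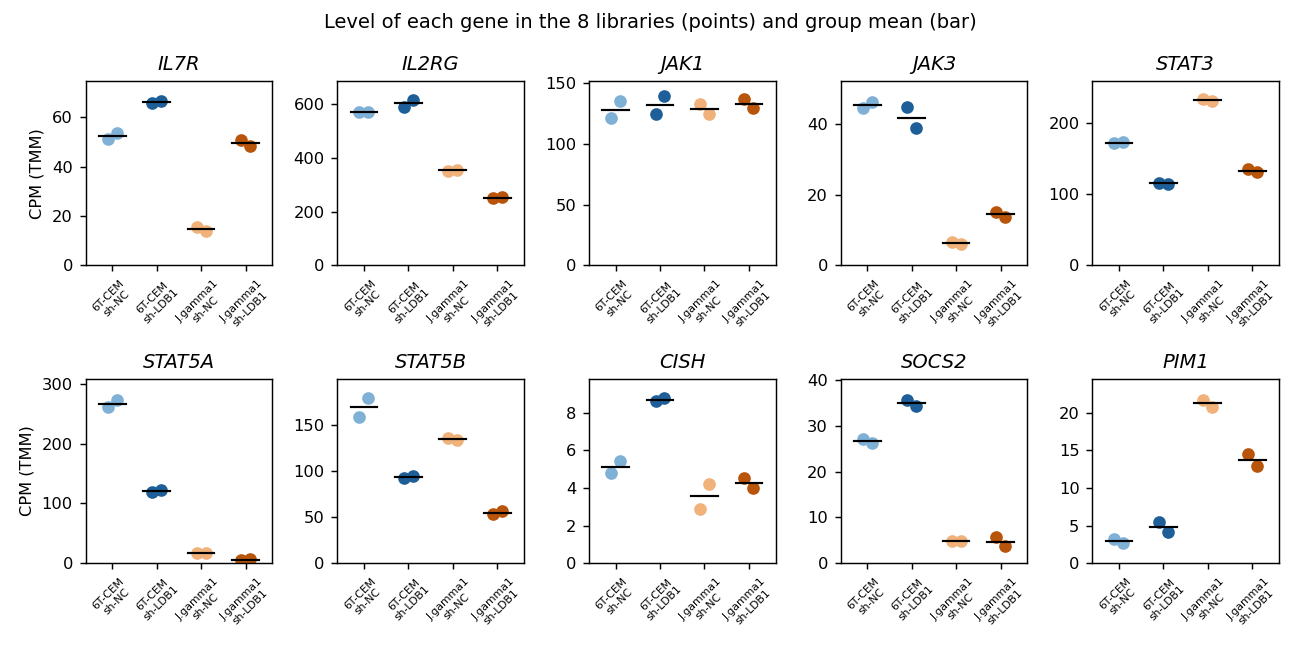
Each panel gives the level of 1 member in CPM on the y axis, from 0, with 1 point per library and a bar at the mean of the 2 libraries of a group. The STAT5A, STAT5B and STAT3 points fall with knockdown in both lines, and the J.gamma1 control points of STAT5A, JAK3 and SOCS2 lie far below those of 6T-CEM.

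STAT5A, which encodes a STAT5 protein closely related to that of STAT5B, lies on chromosome 17 from 42287547 to 42311943 on the plus strand. It stood at 261.5 and 272.2 CPM in 6T-CEM sh-NC and at 118.7 and 122.9 CPM in sh-LDB1, a 2.20-fold decrease (log2 fold change -1.14, SE 0.057, edgeR adjusted p = 3.79e-09). In J.gamma1 the gene was at 17.3 and 16.8 CPM in sh-NC and at 4.61 and 6.18 CPM in sh-LDB1, a 3.14-fold decrease (log2 fold change -1.65, SE 0.16, edgeR adjusted p = 9.54e-06). The groups did not overlap in either line, and the J.gamma1 sh-LDB1 libraries held 129 and 182 reads of this gene. The decrease was larger in J.gamma1 by 0.51 (SE 0.13, edgeR adjusted p = 0.0122), and without the first J.gamma1 sh-LDB1 library this difference was -0.32 (edgeR adjusted p = 0.0676).

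STAT5B, the other STAT5 gene, starts beside STAT5A on the opposite strand, on chromosome 17 from 42199176 to 42288633. It stood at 158.5 and 178.4 CPM in 6T-CEM sh-NC and at 91.7 and 94.3 CPM in sh-LDB1, a 1.81-fold decrease (log2 fold change -0.85, SE 0.068, edgeR adjusted p = 3.07e-07). In J.gamma1 it stood at 134.9 and 133.6 CPM in sh-NC and at 52.6 and 56.2 CPM in sh-LDB1, a 2.46-fold decrease (log2 fold change -1.30, SE 0.056, edgeR adjusted p = 2.82e-08). All sh-LDB1 libraries were below all sh-NC libraries within their line. The decrease was larger in J.gamma1 by 0.44 (SE 0.090, edgeR adjusted p = 0.00344).

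Because the STAT5 genes share exon bases and the use of strand in counting is not stated, reads of the shared stretch cannot be assigned with certainty. Their summed count does not depend on that assignment unless a read was counted for both. The sum stood at 420 and 451 CPM in 6T-CEM sh-NC and at 210.3 and 217.2 CPM in sh-LDB1, a 2.03-fold decrease (log2 fold change -1.02, SE 0.056, edgeR adjusted p = 9.16e-09). In J.gamma1 its levels were 152.2 and 150.4 CPM in sh-NC and 57.3 and 62.4 CPM in sh-LDB1, a 2.52-fold decrease (log2 fold change -1.33, SE 0.058, edgeR adjusted p = 2.74e-08). The difference between the lines was -0.31 (SE 0.077, edgeR adjusted p = 0.0111). It was -0.25 and missed the threshold without the first 6T-CEM sh-NC library (edgeR adjusted p = 0.0589) or the first J.gamma1 sh-LDB1 library (0.0532).

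STAT5A was the main STAT5 transcript in 6T-CEM and STAT5B in J.gamma1. Per exon length, STAT5A made up 75.8% and 74.3% of the pair in the control libraries of 6T-CEM, against 19.5% and 19.3% in those of J.gamma1. In the control cells STAT5A was 15.7-fold lower in J.gamma1 (log2 difference -3.97, SE 0.084, edgeR adjusted p = 5.98e-12), while STAT5B was 1.25-fold lower (log2 difference -0.33, SE 0.062, edgeR adjusted p = 0.000543). With knockdown the STAT5A share was 71.1% and 71.2% in 6T-CEM and 14.2% and 17.3% in J.gamma1, below the share of both control libraries in each line. The share has no test of its own here.

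STAT3, which is activated mainly by cytokines of the interleukin-6 and interleukin-21 type, lies on chromosome 17 from 42313324 to 42388540 on the minus strand, next to STAT5A. It stood at 171.2 and 172.4 CPM in 6T-CEM sh-NC and at 116.1 and 113.9 CPM in sh-LDB1, a 1.49-fold decrease (log2 fold change -0.58, SE 0.057, edgeR adjusted p = 3.04e-06). The J.gamma1 levels were 233.1 and 230.5 CPM in sh-NC and 134.8 and 130.4 CPM in sh-LDB1, a 1.74-fold decrease (log2 fold change -0.80, SE 0.048, edgeR adjusted p = 2.88e-07). The groups did not overlap in either line. The difference between the lines was small, -0.23 (SE 0.064, edgeR adjusted p = 0.0226), and it missed the threshold in 6 of the 8 fits that left out 1 library, with values from -0.21 to -0.24 and adjusted p from 0.0555 to 0.0766.

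The other members of the STAT family described here, STAT2, STAT4 and STAT6, were not called lower in either line by edgeR. STAT6, the mediator of interleukin-4 signals, had -0.13 (SE 0.069) in 6T-CEM and did not pass there, and it rose in J.gamma1 (0.57, SE 0.056). STAT4 rose in J.gamma1 from 2.46 and 3.42 CPM to 6.72 and 7.27 CPM (1.25, SE 0.22) and had at most 0.105 CPM in the 6T-CEM libraries, too low to be tested. STAT2 did not pass in 6T-CEM (0.05, SE 0.12) or J.gamma1 (-0.06, SE 0.077). Of these 6 STAT genes, STAT3, STAT5A and STAT5B included, 5 were tested in 6T-CEM (0 higher, 3 lower) and 6 in J.gamma1 (2 higher, 3 lower). The 6T-CEM counts were also 0 higher and 3 lower at an unadjusted p under 0.05 and by DESeq2.

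STAT5B, STAT5A and STAT3, the 3 STAT genes that fell, are neighbours on chromosome 17. The protein-coding genes within 250 kb of them, a set chosen after the values were seen, were therefore looked at as well, and 18 others were tested in both lines. In 6T-CEM, 2 of the 18 were higher, 7 lower and 9 did not pass, with a median log2 fold change of -0.01. Of all genes tested in 6T-CEM, 15.1% were called higher and 16.2% lower. In J.gamma1, 4 of the 18 were higher, 5 lower and 9 did not pass, with a median of -0.05. Of all genes tested in J.gamma1, 25.0% were called higher and 26.5% lower. The gene next to STAT5B, GHDC, fell in 6T-CEM (-0.54, SE 0.13) and had -0.21 (SE 0.14) in J.gamma1, which did not pass. The gene next to STAT3, CAVIN1, fell in 6T-CEM (-1.33, SE 0.25) and had 0.14 (SE 0.61) in J.gamma1, where its means were 0.395 and 0.433 CPM. The neighbours ranged from -2.86 (ZNF385C) to 0.81 (ODAD4) in 6T-CEM and from -1.21 (CNP) to 0.92 (ATP6V0A1) in J.gamma1.

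**Figure D3:**
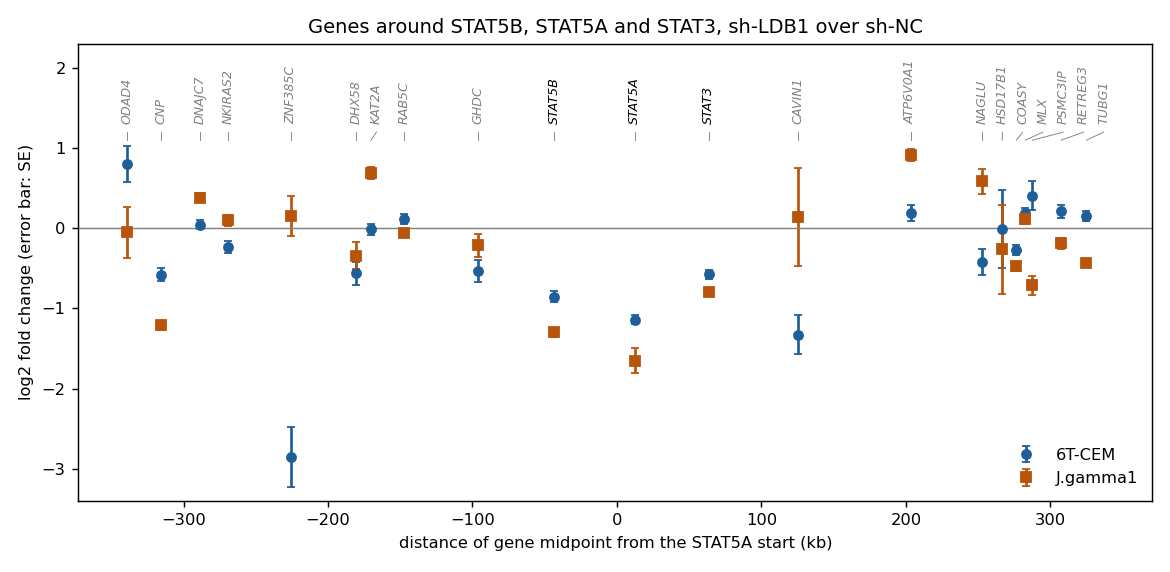
The x axis gives the distance of each gene's midpoint from the start of STAT5A in kb, and the y axis its log2 fold change, sh-LDB1 over sh-NC, with the SE, in 6T-CEM (blue circles) and J.gamma1 (orange squares). The 3 STAT genes near the centre lie below 0 in both lines, while the 18 neighbours lie on both sides of 0.

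CISH, a STAT5 target whose protein binds activated cytokine receptors and limits STAT5 signalling, lies on chromosome 3 from 50606489 to 50611774 on the minus strand. It stood at 4.81 and 5.42 CPM in 6T-CEM sh-NC and at 8.61 and 8.78 CPM in sh-LDB1, a 1.70-fold increase without overlap (log2 fold change 0.77, SE 0.18, edgeR adjusted p = 0.00492). In J.gamma1 the gene was at 2.90 and 4.22 CPM in sh-NC and at 4.54 and 3.97 CPM in sh-LDB1, with overlap, and its log2 fold change of 0.26 (SE 0.24, 95% interval -0.27 to 0.80) did not pass. The change did not differ detectably between the lines (difference -0.51, SE 0.31, 95% interval -1.18 to 0.16). CISH, whose start window holds the 4 STAT matches shown above, rose in 6T-CEM, where the STAT5 sum was 2.03-fold lower. It shares 218 exon bases on the opposite strand with MAPKAPK3, which had mean counts of 3012 and 2904.5 in 6T-CEM sh-NC and sh-LDB1 against 135.5 and 251 for CISH. Without the first 6T-CEM sh-NC library, the CISH change was 0.69 (edgeR adjusted p = 0.0520).

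SOCS2, a STAT5-induced suppressor of cytokine signalling best known for restraining the growth hormone receptor, lies on chromosome 12 from 93569814 to 93583487 on the plus strand. It stood at 27.3 and 26.2 CPM in 6T-CEM sh-NC and at 35.7 and 34.4 CPM in sh-LDB1, a 1.31-fold increase without overlap (log2 fold change 0.39, SE 0.090, edgeR adjusted p = 0.00366). Estimating the spread over all 8 libraries left the value at 0.39 and gave an adjusted p of 0.0657 by edgeR. In J.gamma1 it stood at 4.79 CPM in both sh-NC libraries and at 5.68 and 3.70 CPM in sh-LDB1, on either side of the control (log2 fold change -0.02, SE 0.23, 95% interval -0.54 to 0.49). The difference between the lines was -0.42 (SE 0.22) and did not pass, and without the first J.gamma1 sh-LDB1 library it was -0.76 (edgeR adjusted p = 0.0139). SOCS2 shares 277 exon bases with SOCS2-AS1 on the opposite strand, which had mean counts of 134.5 and 129.5 in 6T-CEM and of 28 and 15.5 in J.gamma1, sh-NC and sh-LDB1 in turn.

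PIM1, a serine/threonine kinase induced by STAT5 and STAT3 that promotes survival, lies on chromosome 6 from 37170152 to 37175428 on the plus strand. It stood at 3.23 and 2.64 CPM in 6T-CEM sh-NC and at 5.49 and 4.16 CPM in sh-LDB1, a 1.65-fold increase (log2 fold change 0.72, SE 0.24, edgeR adjusted p = 0.0327). This call rested on 71 to 160 reads per library, and DESeq2 did not make it (0.73, adjusted p = 0.119). It was also lost without the first 6T-CEM sh-NC library (0.88, edgeR adjusted p = 0.0682), the second (0.59, 0.191) or the first sh-LDB1 library (0.51, 0.276). In J.gamma1 PIM1 stood at 21.8 and 20.8 CPM in sh-NC and at 14.5 and 12.9 CPM in sh-LDB1, a 1.55-fold decrease (log2 fold change -0.63, SE 0.11, edgeR adjusted p = 0.000684). The groups did not overlap in either line, and the change differed between the lines by -1.35 (SE 0.24, edgeR adjusted p = 0.00175).

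The list of STAT5 targets held 16 genes, CISH, SOCS2 and PIM1 among them. In 6T-CEM 13 were tested (5 higher, 3 lower by edgeR, and 4 higher, 3 lower by DESeq2). In J.gamma1 16 were tested (3 higher, 6 lower by edgeR, and 1 higher, 4 lower by DESeq2). BCL2, which protects cells from apoptosis, fell in both lines, from 44.1 and 51.6 CPM to 28.6 and 25.2 CPM in 6T-CEM (log2 fold change -0.83, SE 0.099) and from 54.6 and 52.1 CPM to 17.6 and 17.8 CPM in J.gamma1 (-1.59, SE 0.078). SOCS1, the inhibitor that binds JAK kinases directly, rose in both lines by edgeR. Its J.gamma1 call rested on 19 and 18 reads in sh-NC and 33 and 45 in sh-LDB1 (edgeR adjusted p = 0.0280). SOCS1 went from 1.35 and 1.37 CPM to 8.78 and 9.58 CPM in 6T-CEM (2.75, SE 0.22). In J.gamma1 it went from 0.599 and 0.571 CPM to 1.18 and 1.53 CPM (1.21, SE 0.41). BCL6, a transcriptional repressor that STAT5 is known to repress, rose in 6T-CEM (1.39, SE 0.31) from about 1 CPM. In J.gamma1 it fell by edgeR (-0.43, SE 0.14, adjusted p = 0.0239) from 16.0 and 14.5 CPM. MYC, named after its values were seen, moved the other way, with a decrease in 6T-CEM (-0.43, SE 0.053) and an increase in J.gamma1 (0.54, SE 0.046). For these and the other lists, the shares of all genes called higher and lower were 15.1% and 16.2% in 6T-CEM and 25.0% and 26.5% in J.gamma1. The log2 fold changes of the STAT5 targets had a median of 0.00 for 6T-CEM and -0.16 for J.gamma1.

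The negative regulators, a list of 17 genes with the SOCS family, the PIAS proteins, phosphatases and SH2B3, had 16 members tested in 6T-CEM (7 higher, 1 lower) and 17 in J.gamma1 (7 higher, 4 lower). SOCS1, CISH and SOCS2 are counted here as well as among the STAT5 targets. The list had a median log2 fold change of 0.08 for 6T-CEM and 0.17 for J.gamma1. By edgeR, SOCS1 was the member past the fold threshold in each line. DESeq2 called 7 of the list higher and 1 lower in 6T-CEM, and 6 higher and 4 lower in J.gamma1.

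Of the 13 other receptors that signal through JAK kinases, 8 were tested in 6T-CEM (2 higher, 1 lower by edgeR, and 1 higher, 1 lower by DESeq2). In J.gamma1 10 were tested (1 higher, 5 lower by edgeR and by DESeq2). IL12RB1, a chain of the receptors of interleukins 12 and 23, rose in both lines by edgeR. The increase was 1.00 (SE 0.29) in 6T-CEM and 2.20 (SE 0.38) in J.gamma1. The 6T-CEM call rested on 59 and 38 reads in sh-NC and 120 and 92 in sh-LDB1 (edgeR adjusted p = 0.0171). The levels of IL12RB1 were low, from 2.27 and 1.41 CPM to 4.12 and 3.22 CPM in 6T-CEM. In J.gamma1 they went from 0.977 and 0.444 CPM to 2.79 and 3.73 CPM. LIFR, the receptor of leukemia inhibitory factor, fell in J.gamma1 from 4.06 and 5.01 CPM to 0.393 and 0.747 CPM (-2.97, SE 0.34) and was near 0 in 6T-CEM. The 20 genes of the PI3K and RAS branch were all tested in both lines. In 6T-CEM 7 were higher and 5 lower, and in J.gamma1 5 were higher and 6 lower. GAB2, an adaptor that couples cytokine receptors to PI3K, fell in J.gamma1 from 32.1 and 37.0 CPM to 6.33 and 5.60 CPM (-2.53, SE 0.12) and in 6T-CEM from 26.6 and 29.7 CPM to 20.4 and 22.6 CPM (-0.39, SE 0.11). The difference between the lines was -2.14 (SE 0.16, edgeR adjusted p = 4.12e-06). PIK3CA, a catalytic subunit of PI3K, fell in both lines (-0.52, SE 0.085 in 6T-CEM and -1.15, SE 0.078 in J.gamma1). Of 7 known regulators of IL7R transcription, all tested, 0 were higher in 6T-CEM by edgeR (0 at an unadjusted p under 0.05, and 0 by DESeq2) and 4 lower, and 3 were higher and 1 lower in J.gamma1.

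**Figure D4:**
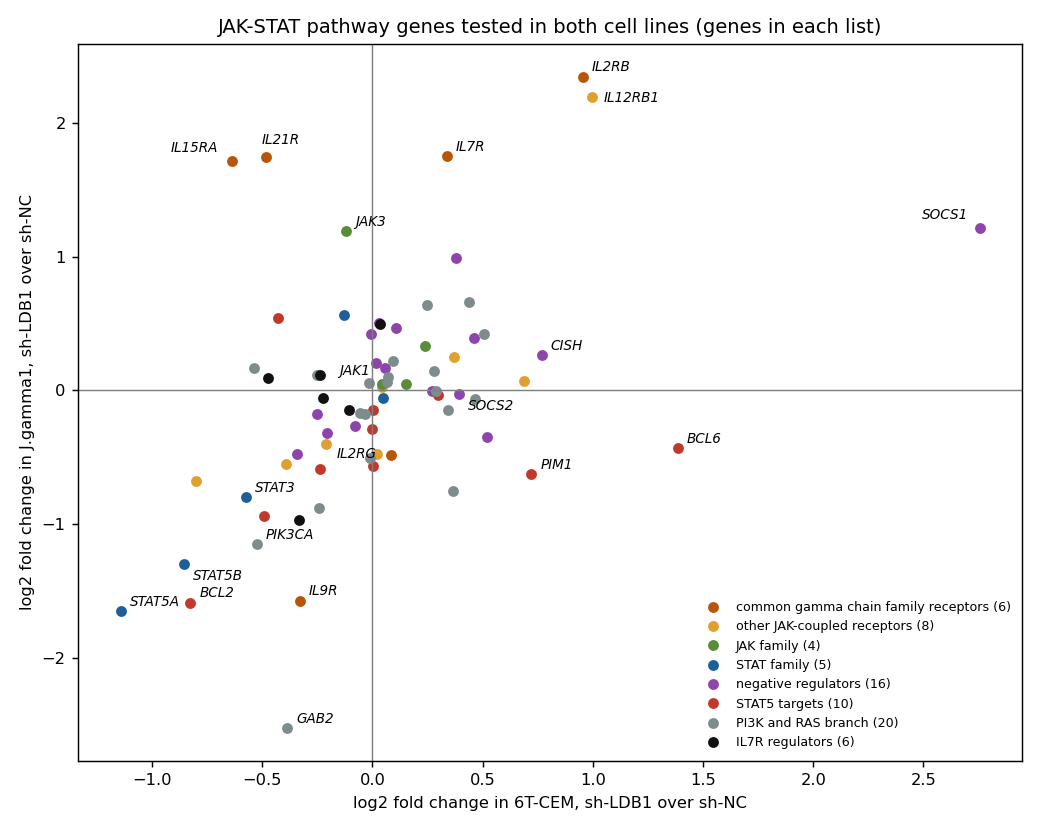
Each point is a pathway gene tested in both lines, with its log2 fold change in 6T-CEM on the x axis and in J.gamma1 on the y axis, coloured by list. Genes of 2 lists are drawn once, in the first. STAT5A, STAT5B, STAT3, BCL2, PIK3CA and GAB2 lie in the lower left, SOCS1, IL2RB, IL12RB1 and IL7R in the upper right, and PIM1 and BCL6 in the lower right.

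Per exon length, as CPM per 1000 exon bases (RPKM), IL2RG was the highest member in all 4 groups, at 209 ± 0.48 RPKM (SD, n = 2) for 6T-CEM sh-NC and 129 ± 1.6 RPKM in J.gamma1 sh-NC. STAT5A came next in 6T-CEM sh-NC, at 41.8 ± 1.2 RPKM, followed by STAT3 (15.3 RPKM), STAT5B (13.9 RPKM), JAK1 (9.75 RPKM), IL7R (8.71 RPKM), JAK3 (5.41 RPKM), SOCS2 (4.13 RPKM), CISH (1.01 RPKM) and PIM1 (0.968 RPKM). The libraries of neighbours in this order did not overlap, except those of CISH and PIM1. In J.gamma1 sh-NC the order was IL2RG, STAT3 (20.7 RPKM), STAT5B (11.1 RPKM), JAK1 (9.81 RPKM), PIM1 (7.03 RPKM), STAT5A (2.67 RPKM), IL7R (2.46 RPKM), JAK3 (0.759 RPKM), SOCS2 (0.739 RPKM) and CISH (0.704 RPKM), and the last 3 overlapped their neighbours. With knockdown IL7R moved from rank 6 to rank 3 in 6T-CEM, at 11.0 ± 0.11 RPKM. In J.gamma1 it moved from rank 7 to rank 4, at 8.24 ± 0.27 RPKM. These ranks depend on the exon length, which takes in every annotated exon base of a gene. In mean CPM, IL7R (66.1) stayed below STAT5B (93.0), STAT3 (115) and JAK1 (132) in 6T-CEM sh-LDB1. It also stayed below STAT5B in J.gamma1 sh-LDB1 (49.6 against 54.4). STAT5A kept rank 2 in 6T-CEM, at 18.9 ± 0.47 RPKM, and was at rank 8 in J.gamma1, at 0.845 ± 0.17 RPKM, where it overlapped CISH.

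**Figure D5:**
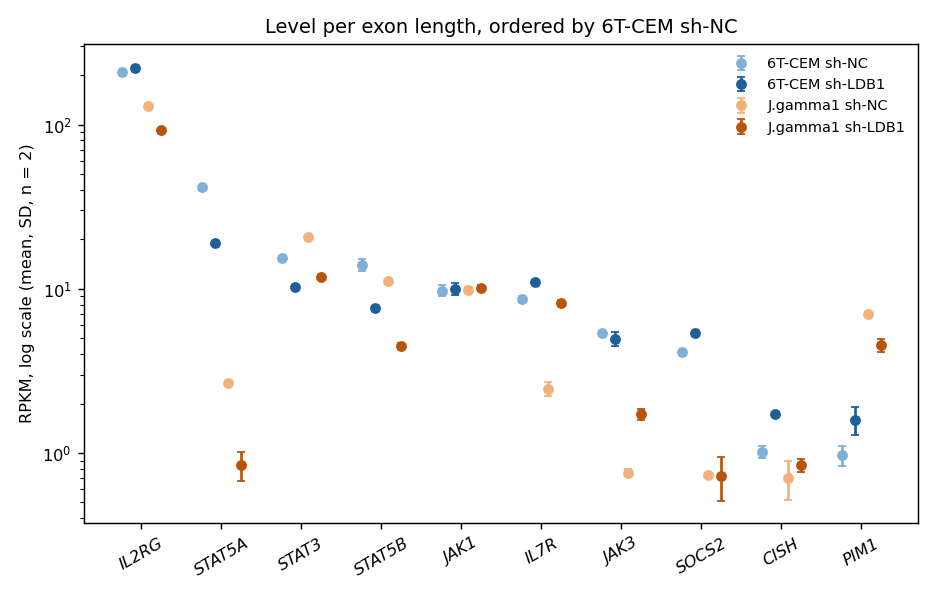
The y axis gives the level per exon length in RPKM on a log scale, as the mean and SD of 2 libraries, for each member and group, with members ordered along the x axis by 6T-CEM sh-NC. IL2RG lies between 92.3 and 221 RPKM, JAK1 close to 10 RPKM in every group, and STAT5A between 0.845 and 41.8 RPKM.

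The control cells of the lines were compared across tables that were deposited separately, so that line and table cannot be told apart. In J.gamma1 sh-NC, 2 of the 10 members were higher than in 6T-CEM sh-NC, where 34.6% of all 18552 genes tested were higher, and 6 were lower, where 31.1% of all genes were lower. PIM1 was 7.26-fold higher in J.gamma1 (log2 difference 2.86, SE 0.18) and STAT3 was 1.35-fold higher (0.43, SE 0.045). STAT5A, JAK3 (7.13-fold), SOCS2 (5.58-fold), IL7R (3.54-fold), IL2RG (1.61-fold) and STAT5B were lower, and JAK1 and CISH did not pass (CISH -0.52, SE 0.22). The J.gamma1 control cells thus had less of both receptor chains, of JAK3 and of both STAT5 genes in CPM than the 6T-CEM control cells.

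The response to knockdown differed between the lines for 7 of the 10 members. The difference of the change, J.gamma1 minus 6T-CEM, was above 0 for IL7R and JAK3, where 12.0% of all 18552 genes tested had a difference called higher, and below 0 for IL2RG, STAT3, STAT5A, STAT5B and PIM1, where 12.4% of all genes had one called lower. JAK1, CISH and SOCS2 did not pass. For IL7R and JAK3, both low in the J.gamma1 control cells, the sh-LDB1 libraries of the lines lay closer together, in CPM and as a ratio, than the sh-NC libraries did. At 65.7 and 66.6 CPM against 50.8 and 48.5 CPM, IL7R was still higher in 6T-CEM. STAT5A went from 261.5 and 272.2 against 17.3 and 16.8 CPM in sh-NC to 118.7 and 122.9 against 4.61 and 6.18 CPM in sh-LDB1, so that the lines lay fewer CPM apart and at a larger ratio.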

How the data were processed

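Sequenced RNA came from 8 libraries, 2 for each line and hairpin. Per the labels and methods, the authors used HISAT2 2.2.0 to align paired-end reads to hg38, quantified genes with StringTie and deposited 2 tables, 1 per line, of raw counts per gene. The annotation release and any use of strand are not given in the sources used here, so overlapping genes (STAT5A with STAT5B, CISH, SOCS2) are uncertain. Symbols, coordinates and exon lengths, each over all annotated exons of a gene, came from GENCODE release 44.

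Counts were fitted for each line with edgeR 4.0.16 in R 4.3.3 (quasi-likelihood F test, robust, TMM, filterByExpr), with Benjamini-Hochberg adjustment over all genes tested. Line differences were contrasts in a fit to all 8 libraries. CPM used TMM factors, and SE is the log2 fold change over the square root of F. Biological variation (BCV) amounted to 9.68% for 6T-CEM and 9.16% for J.gamma1. With 200 changed genes simulated, edgeR recovered 198 in 6T-CEM (15736 genes, 6.6% of calls false) and 199 in J.gamma1 (16584 genes, 5.69%). The line difference recovered 337 of 394 (17833 genes, 9.65%). The data themselves had 5023 calls in 6T-CEM and 8870 in J.gamma1, and recovery with so many changed genes was not tested. Recovery at the fold sizes of the members was not tested separately.

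The members and lists were chosen with earlier results of these data known, and 1 gene of the lists is not reported here. From the pathway lists, genes were named with an adjusted p under 0.05, a log2 fold change beyond 1 and a mean of at least 50 counts in a group, besides LDB1, the members and the JAK, STAT and gamma chain receptor families. Alternatives were DESeq2 1.42.0, other normalization and filters, the replicate number as a block, a fit to all 8 libraries, summed duplicate symbols, a fold threshold and leaving out each library.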

Additional observations from a re-analysis of the deposited data

Results flagged for a closer look

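A closer look is warranted where the change with knockdown differed between the lines in the 8-library edgeR fit, given here as J.gamma1 minus 6T-CEM on the log2 scale with edgeR's adjusted p. IL7R (1.41, adjusted p = 4.66e-06) and JAK3 (1.31, 6.50e-05) had the higher change in J.gamma1. IL2RG (-0.57, 3.75e-05), STAT3 (-0.23, 0.0226), STAT5A (-0.51, 0.0122), STAT5B (-0.44, 0.00344), the sum of STAT5A and STAT5B (-0.31, 0.0111) and PIM1 (-1.35, 0.00175) had the lower change there. PIM1 moved in opposite directions, with both sh-LDB1 libraries above the sh-NC libraries in 6T-CEM and below them in J.gamma1. LDB1 fell by less in J.gamma1 (difference 0.70), and the part of the depth of knockdown in these differences was not tested. With 2 libraries per group, no single library could be tested as standing apart.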

How the results depend on the processing

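Of 544 alternative values of single members, 511 kept their direction and their side of the threshold, 14 kept the direction and missed the threshold, 3 kept it and passed anew, and 16 changed sign, 14 of JAK1 and 2 of SOCS2, with 0 of the 16 called before or after. Without 1 library, the 6T-CEM change of JAK1 ranged from -0.046 to 0.13, its J.gamma1 change from -0.00071 to 0.098, its line difference from -0.071 to 0.10 and its control difference from -0.079 to 0.084, and the SOCS2 change in J.gamma1 from -0.36 (without the first sh-LDB1 library) to 0.26 (without the second). The JAK1 line difference was -0.00048 with RLE factors and with DESeq2, -0.0036 with library totals and -0.0018 with no filter, and SOCS2 in J.gamma1 was 0.0055 with library totals. With a log2 fold change beyond 1 required, 6T-CEM had 1 member called in place of 7 and J.gamma1 had 4 in place of 7, and the calls over all genes went from 5023 to 824 and from 8870 to 2386. Without 1 library, the members called ranged from 5 to 7 in 6T-CEM, the list genes called there from 19 (without the second sh-NC library) to 25 against 31, the median J.gamma1 member change from -0.42 (without the first sh-LDB1 library) to -0.19, and the STAT5 sum's line difference from -0.38 to -0.25. Without the first 6T-CEM sh-NC library 3234 genes were called in 6T-CEM, and without the second 3339. CISH in the control cells of the lines passed with a filter of at least 1 CPM (-0.53, edgeR adjusted p = 0.0492) and without the second J.gamma1 sh-NC library (-0.81, 0.0180), and PIM1 in 6T-CEM missed the threshold with no filter (0.71, 0.0903). Library totals in place of TMM moved the median of all genes between the control cells from 0.04 to 0.19. The cause of these shifts was not tested.

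Replicate numbers did not pair the samples (correlations of same-numbered deviations between -0.027 and 0.064). With the replicate block, 6T-CEM had 5070 calls and J.gamma1 8785, the STAT5 sum's changes were -1.02 and -1.33, and no member call changed. Depth limits CISH, PIM1, SOCS2 and, in J.gamma1, STAT5A, which rested on under 200 reads per library in some groups.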
